A study of Mus musculus with 2 samples.

Results

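Recirculating colonic CD4 T cells are the cells to which the authors' deposited annotation gives the subset name recirculating, all of them in their cluster 0. They numbered 4292 of the 18860 CD4 T cells in the table (22.8%) and came from 12 mice. The hosts were Rag-/- mice, which lack T and B cells of their own. The T cells in their colon therefore came from the CD4 T cells transferred into them, the adoptive transfer model of colitis. The 6 WT mice had received naive CD4 T cells sorted as CD45RBhigh and CD25-, and the 6 KO mice had received BCL-6-deficient CD4 T cells. The labels give neither the Bcl6 allele and any Cre that removed it nor whether the KO cells were sorted for the same markers, and no age or sex of the mice. TCRb+CD4+ cells were sorted from each colon, marked with 1 hashtag antibody per mouse, and read in 1 pooled 5′ single-cell library. The mouse was the replicate. The labels do not say whether each host had its own T cell donor, so p-values measure the spread between hosts.

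T cells leave tissues and lymph nodes by following sphingosine 1-phosphate, which is sensed by the receptor S1PR1. The transcription factor KLF2 switches on S1pr1. CCR7 guides T cells toward lymph nodes and lymph vessels, the interleukin 7 receptor chain IL7R supports survival of resting T cells, and CD69 removes S1PR1 from the surface of activated cells. BCL6 is a transcriptional repressor needed by follicular helper T cells, in which it lowers genes of the KLF2 and S1PR1 kind.

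Of the 4 markers of recirculation, S1pr1 was the one highest in these cells. Levels are given as CPM (counts-per-million), the share of a gene among all UMIs summed over the recirculating cells of a mouse. S1pr1 (chromosome 3, 115710433 to 115715072, minus strand, GRCm38) stood at a mean of 122 CPM, against 76.8 CPM in the regulatory cluster and 39.8 CPM in the cytotoxic cluster, and was highest in recirculating cells in 11 of the 12 mice. It was lowest in the cluster unnamed 1, which like the cluster unnamed 3 carries only a general CD4 label, at 10.2 CPM. Counts of mice for subset levels, here and below, compare only clusters with at least 20 cells of the mouse. Regulatory cells had fewer in KO mouse 3 and WT mice 2, 3 and 5, and were not compared in those mice. The other 3 markers were not highest in recirculating cells. Klf2 (chromosome 8, 72319033 to 72321656, plus strand) averaged 487 CPM, below the regulatory (985) and cytotoxic (534) clusters. Ccr7 (chromosome 11, 99144196 to 99155077, minus strand) averaged 92.7 CPM, below regulatory cells (629). Il7r (chromosome 15, 9505788 to 9530176, minus strand) averaged 959.7 CPM, below the clusters unnamed 3 (1153) and unnamed 1 (1127).

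Cd69, the antagonist of S1PR1, averaged 715 CPM, in the middle of the 7 clusters. These levels are a description with no test, because the cells were clustered on the same genes.

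**Figure D1:**
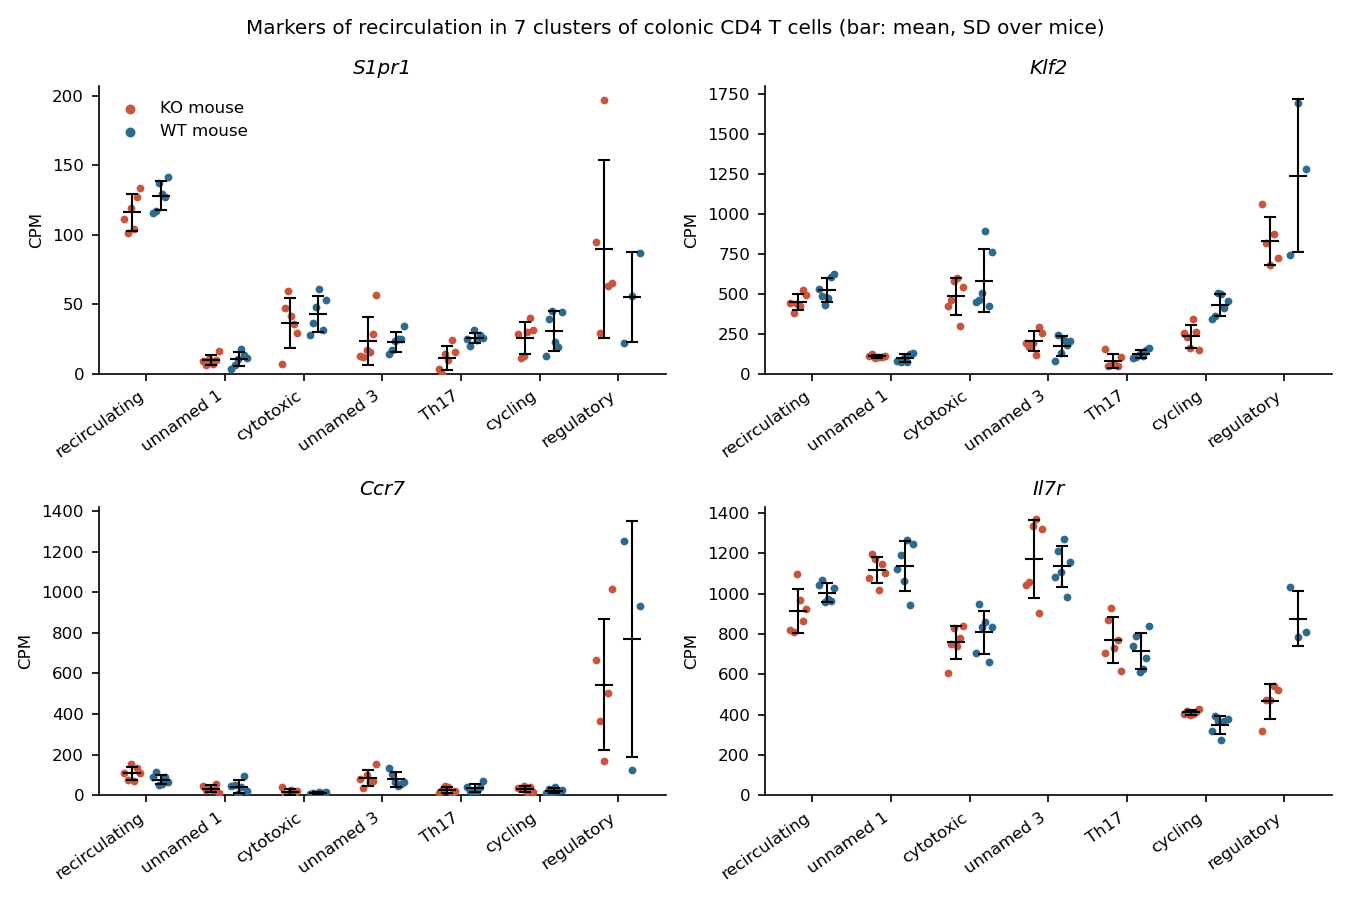
CPM (linear axes) of S1pr1, Klf2, Ccr7 and Il7r in each mouse, for 7 clusters with at least 20 cells of the mouse. Points are mice, and bars show the mean and SD over KO or WT mice; regulatory cells have 5 KO and 3 WT mice. S1pr1 averaged 122 CPM in recirculating cells, while Klf2 and Ccr7 were higher in regulatory cells at 985 and 629 CPM.

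Beyond S1pr1, the genes that stood highest above the other clusters were Rasa3, S1pr4, Rasgrp2, Lef1 and Klhl6. Of 2754 genes with at least 50 CPM, 6 were at least 1.5 times higher than in the highest other cluster. Rasa3, which switches off Ras and Rap1, stood at 151 CPM against 78.7 in cytotoxic cells, the next highest, and was highest in all 12 mice. Rasgrp2, an activator of Rap1 and so of integrins, stood at 102 against 60.7 CPM, and S1pr4, a second sphingosine 1-phosphate receptor, at 179 against 106 CPM, each highest in 12 of 12 mice. Lef1, a transcription factor of naive and stem-like T cells, stood at 118 against 74.0 CPM, and Klhl6 at 113 against 75.1 CPM, each highest in 11 mice.

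Next came genes between 1.20 and 1.30 times the highest other cluster. They were Atp1b3, a sodium pump subunit, Bin2, Kcnab2, Ctla2b, which has a near-identical copy whose reads counting could split, Glipr2, Gna15, Ufm1, Ripor2 and Lsp1, a binder of actin. Bin2 and Lsp1 were highest in all 12 mice and Ctla2b in 3. Against the mean of the other clusters in place of the highest, 30 genes passed 1.5-fold.

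A second set of 10 genes stood lowest in recirculating cells. Ier5l, an immediate early response gene, stood at 44.6 CPM, while the other clusters ran from 83.9 CPM in cycling to 253 CPM in Th17 cells, and it was lowest in recirculating cells in 11 mice. Id2, a factor of effector T cells, stood at 259 CPM, below 359 to 758 CPM elsewhere, and was lowest in 12 of 12 mice. Rbpj, the nuclear effector of Notch, stood at 75.6 CPM and was lowest in 8 mice. Nfkbid, an atypical inhibitor of NF-kappa-B, stood at 89.0 CPM and was lowest in 10 mice. Isg15, an interferon target, stood at 96.7 CPM and was lowest in 8 mice. The others were Tinf2, Litaf, Coro2a, Plscr1 and Tuba4a, lowest in 6 to 9 mice.

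The mice gave 112 to 659 recirculating cells and 376075 to 2335731 UMIs each, fewest in KO mice 1 and 2 with 152 and 112 cells. Median depth per cell was 3059.8 ± 117 UMIs in KO against 3279.9 ± 81.3 in WT mice (SD, n = 6 each; p = 0.00866 by the exact permutation test, 0.0260 when adjusted over 3 measures). Genes per cell were 1346 ± 41.0 against 1363 ± 27.4 (exact p = 0.450). The mitochondrial share was 0.851% ± 0.0250 against 0.906% ± 0.0396 (adjusted p = 0.0325 by the exact test), a call lost when any of 8 of the 12 mice was left out (KO 2 to 6 and WT 2, 5 and 6). The median deposited doublet score ran from 0.0814 to 0.0890 in KO mice and from 0.0667 to 0.0773 in WT mice, without overlap, and its part in the results below was not tested beyond a fit without high scores.

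Markers of other cell types were scarce in recirculating cells. Summed over a mouse, 6 myeloid markers in the table made up 7.83 to 27.4 CPM in KO and 5.88 to 21.2 CPM in WT mice, 3 B cell and plasma cell markers 13.9 to 34.6 and 9.55 to 16.6 CPM, and Cd8a with Cd8b1 2.14 to 5.52 and 3.67 to 14.2 CPM. The 5 epithelial markers differed, at 7.83 to 18.6 CPM in KO and 24.3 to 57.5 CPM in WT mice, without overlap. The called members were Tff1, a secreted mucosal protein (log2 fold change -2.41 ± 0.38, adjusted p = 1.38e-04), and Krt18 (-1.30 ± 0.30, adjusted p = 0.00629), whereas Epcam had 8 UMIs in KO and 4 in WT mice, Krt8 10 and 7, and Cdh1 23 and 22. The part of these markers in the falls below was not tested. Klrb1c, the only member in the table of the natural killer and innate lymphoid marker list, had 10 UMIs in KO and 34 in WT mice. Pecam1, the only such member of the stromal and endothelial list, did not differ by the test (-0.28 ± 0.12, adjusted p = 0.245).

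Bcl6 (chromosome 16, 23965052 to 23988852, minus strand) did not fall in recirculating cells of KO mice. It stood at 52.9, 63.8, 79.7, 60.7, 81.9 and 78.8 CPM in KO mice 1 to 6. WT mice 1 to 6 stood at 41.5, 39.3, 54.8, 44.1, 42.4 and 63.9 CPM. KO mice were mostly above WT mice, with overlap. The log2 fold change, KO over WT, was 0.54 ± 0.12 (SE, adjusted p = 0.00655), the reverse of a loss of transcript. Since reads come from the 5′ ends of RNAs, and the sources used here do not name the deleted part, this count checks nothing about the deletion, and directions refer to the deposited labels. With 112 cells drawn from every mouse the value was 0.19 (adjusted p = 0.772).

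Across all 7596 genes tested, edgeR called 416 between KO and WT mice in recirculating cells (5.48%), 165 higher (2.17%) and 251 lower (3.3%) in KO mice. At an unadjusted p under 0.05 there were 1251. The genotypes did not overlap in CPM at 295 genes (3.88%), 181 of them higher and 114 lower. The split of the calls depends on the scaling. Scaled to total UMIs without TMM factors, a fit added after seeing the data, 302 genes were higher and 175 lower, and the median log2 fold change moved from 0.00 to 0.06. None of the 416 genes changed sign there, and 340 stayed called in the same direction. Under this scaling Nkg7, Tbx21, Ccr2, Itgb1, Il4ra, Il21r, Il2rb, Id2, Hk1, Bst2 and Cd3e, all of them members of the lists and not called with TMM factors, were also called higher. Without KO mice 1 and 2 there were 341 calls, 308 of them among the 416, and without the 5% of cells with the highest doublet scores 422, of which 391 were.

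**Figure D2:**
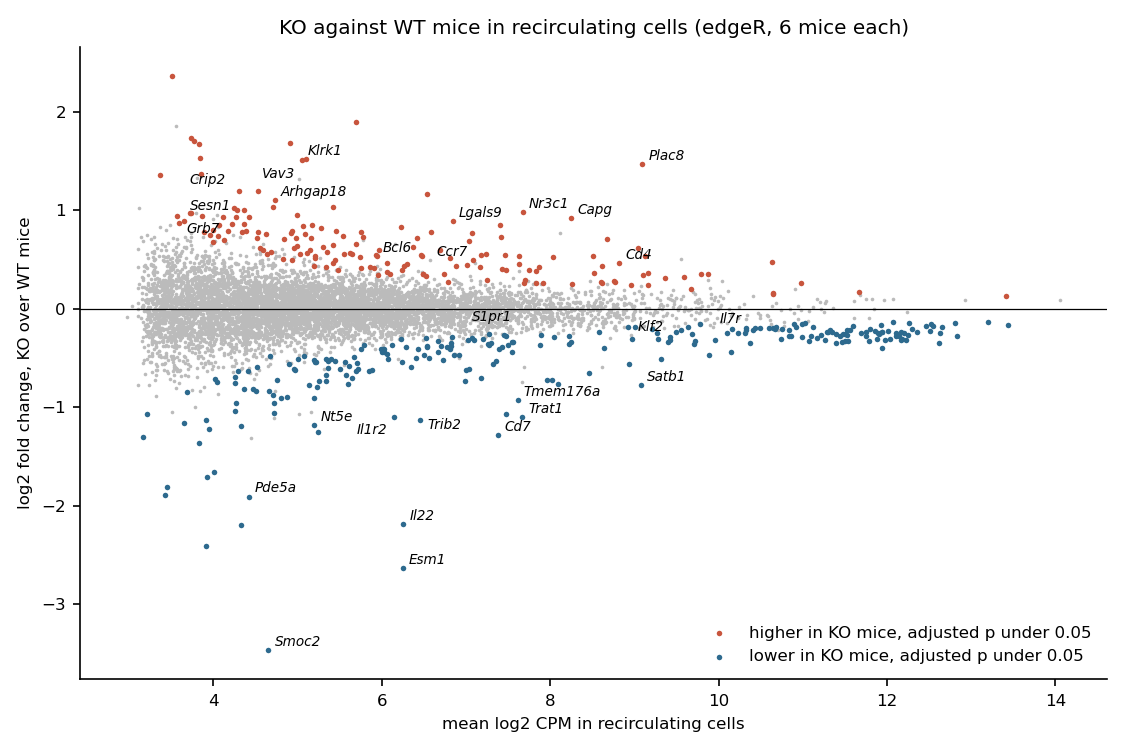
Log2 fold change, KO over WT mice, against the mean log2 CPM of 7596 genes in recirculating cells (6 mice each). Colours mark the 165 genes called higher and 251 called lower. Klf2, S1pr1, Ccr7 and Il7r, with values from -0.27 (Klf2) to 0.49 (Ccr7), were not called. The dense group of lower genes at the right is mostly ribosomal protein genes.

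None of the 4 markers of recirculation was called between the genotypes by edgeR or DESeq2. Klf2 ranged from 378 to 524 CPM (median 438) in KO mice and from 428 to 624 CPM (median 508) in WT mice, overlapping, and its fitted difference was -0.27 ± 0.08 (adjusted p = 0.0639). S1pr1 ranged from 101 to 134 CPM (median 115) in KO mice and from 116 to 142 CPM (median 128) in WT mice (-0.17 ± 0.08, adjusted p = 0.309). Ccr7 was at 108 ± 32.3 against 77.0 ± 23.98 CPM (mean ± SD, n = 6 each) and 0.49 ± 0.17, with an adjusted p of 0.107. Il7r was at 914 ± 109 against 1005 ± 45.6 CPM and -0.19 ± 0.06 (adjusted p = 0.0979). At an unadjusted p under 0.05 edgeR had 1 of the 4 higher and 2 lower, and DESeq2 2 lower.

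Single mice decided whether Klf2, Ccr7 and Il7r passed, while S1pr1 passed in no fit. Klf2 became lower without KO mouse 5, -0.31 (adjusted p = 0.0384), KO mouse 6, -0.30 (adjusted p = 0.0398), or WT mouse 3, -0.32 (adjusted p = 0.0159). Ccr7 became higher without KO mouse 4, 0.60 (adjusted p = 0.0303), or WT mouse 2, 0.64 (adjusted p = 0.0245). Il7r became lower without KO mouse 3, -0.25 (adjusted p = 0.00985). Klf2 was also called in 4 other fits, with equal numbers of cells, no low-count filter, no receptor segments or no high doublet scores, at log2 fold changes of -0.27 to -0.44, and Ccr7 in cells with a clonotype, 0.65 (adjusted p = 0.0256).

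Among 15 tested genes of egress and lymph node homing, 1 rose and 2 fell, and their median log2 fold change was 0.02, beside 0.00 over all genes. Over all genes 2.17% were called higher and 3.3% lower, the shares to set beside the counts of this and later lists. Arhgap18, a GTPase-activating protein, ranged from 30.7 to 44.2 CPM (median 34.3) in KO mice and from 11.03 to 19.1 CPM (median 15.7) in WT mice. It was one of the 10 largest rises, so that every KO mouse stood above every WT mouse was required by the rule. The log2 fold change was 1.10 ± 0.15 (adjusted p = 2.29e-05). S1pr4, high in this subset, ranged from 136 to 192 CPM (median 153) in KO mice and from 168 to 218 CPM (median 208) in WT mice. Its genotypes overlapped, the log2 fold change was -0.34 ± 0.09 (adjusted p = 0.0173), and the call was lost without KO mouse 4, -0.30 (adjusted p = 0.0512), on scaling to total UMIs, -0.28 (adjusted p = 0.0638), and without KO mice 1 and 2, -0.29 (adjusted p = 0.0866). Cxcr4, the receptor for CXCL12, was at 21.8 ± 5.55 against 34.5 ± 6.41 CPM, -0.62 ± 0.17 (adjusted p = 0.0250), and lost its call when KO mouse 1, 3 or 5 or WT mouse 4 or 5 was left out (adjusted p = 0.0522 to 0.0893). Cxcr4 was also not called with thinned cells, -0.63 (adjusted p = 0.132), with 112 cells per mouse, -0.93 (adjusted p = 0.0864), without high doublet scores, -0.55 (adjusted p = 0.0662), in cells with a clonotype, -0.52 (adjusted p = 0.149), or without KO mice 1 and 2, -0.55 (adjusted p = 0.0832). With 1 mouse left out, the list had 2 higher without KO mouse 4 or 6 and 3 without WT mouse 2, and 1 lower without KO mouse 1, 3 or 4 or WT mouse 4 or 5. Cd69 (0.12 ± 0.07), Gpr183 (-0.01 ± 0.10), Klf3 (0.07 ± 0.09), Selplg (0.11 ± 0.05) and Itgb7 (0.02 ± 0.07) did not pass.

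Calls among genes of gut and inflamed tissue homing depended on the fit. Of 11 tested, edgeR with TMM scaling and the DESeq2 test each called 0, and each had 3 higher and 2 lower at an unadjusted p under 0.05. The edgeR fit had 1 higher and 1 lower without KO mouse 2, 2 higher without KO mouse 6, and 1 higher without WT mouse 4, without WT mouse 6, without KO mice 1 and 2, without receptor segments, with DESeq2 size factors or scaled to total UMIs. It had 1 lower with cells thinned to 1500 UMIs, and 1 higher and 2 lower without a low-count filter. Ccr2, a receptor for inflammatory chemokines, had 0.38 ± 0.12 (adjusted p = 0.0519) and the colonic homing receptor Gpr15 0.84 ± 0.37 (adjusted p = 0.244). Cxcr6 (-0.09 ± 0.09) and Itgae (-0.31 ± 0.18), both linked to residence in tissue, had adjusted p of 0.734 and 0.411. Ccr9, with 10 UMIs in KO and 63 in WT mice, and Ccr6, with 13 and 47, were too low to be tested.

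Of 14 tested genes of the naive, memory and stem-like list, 2 fell. Satb1 (chromosome 17, 51736187 to 51833290, minus strand), a chromatin organiser of T cells, ranged from 338 to 445 CPM (median 389) in KO mice and from 589 to 705 CPM (median 647) in WT mice. Every KO mouse lay below every WT mouse, and the log2 fold change was -0.77 ± 0.07 (adjusted p = 1.53e-08). Fewer recirculating cells held a UMI of it, 39.6% ± 2.35 against 57.3% ± 1.92 of cells thinned to 1500 UMIs (SD, n = 6 each). Slamf6, a receptor of the SLAM family, was at 36.6 ± 10.2 against 58.5 ± 13.97 CPM (-0.61 ± 0.15, adjusted p = 0.0144), and not called without WT mouse 3, -0.47 (adjusted p = 0.0566), with 112 cells per mouse, -0.77 (adjusted p = 0.122), in cells with a clonotype, -0.53 (adjusted p = 0.0569), or without KO mice 1 and 2, -0.49 (adjusted p = 0.0578). Lef1 had -0.36 ± 0.11 (adjusted p = 0.0506), while Tcf7, the gene of TCF1, had -0.15 ± 0.08 (adjusted p = 0.414), Foxo1 -0.03 ± 0.10 and Bach2 0.24 ± 0.23. The list's median was -0.09.

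The interleukin 7 and common gamma chain pathway had 1 call in 18 tested genes, a count that moved with the fit. Jak3, the kinase bound to the common gamma chain, was at 82.9 ± 8.08 against 110.1 ± 10.7 CPM (-0.44 ± 0.09, adjusted p = 0.00216). The receptor genes Il7r, Il2ra (-0.46 ± 0.16), Il2rb (0.18 ± 0.07), Il2rg (0.03 ± 0.05) and Il4ra (0.30 ± 0.10) did not pass. Neither did Stat5a (-0.28 ± 0.12), Stat5b (-0.22 ± 0.08), Bcl2 (0.06 ± 0.13) or Mcl1 (-0.19 ± 0.06, adjusted p = 0.0534). At an unadjusted p under 0.05, 4 were higher and 8 lower. With 1 mouse left out, 3 were lower without KO mouse 3 or WT mouse 6 and 2 without KO mouse 2, KO mouse 4 or WT mouse 1. There were 2 higher and 1 lower without KO mouse 6, and 1 of each without WT mouse 2 or 4. With thinned cells 4 were lower, in cells with a clonotype 3, without high doublet scores 1 was higher and 2 lower, and scaled to total UMIs 3 were higher and 1 lower.

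Among the 10 largest rises, Plac8 (chromosome 5, 100553725 to 100572245, minus strand), a small cysteine-rich protein, had the smallest p, and it ranged from 732 to 914 CPM (median 833) in KO mice and from 214 to 361 CPM (median 286) in WT mice. The groups did not overlap, which the rule for the 10 largest rises and falls required of every gene. The log2 fold change was 1.47 ± 0.10 (adjusted p = 1.45e-10), and 46.0% ± 3.22 against 18.2% ± 2.49 of thinned cells had a UMI of it. Capg (chromosome 6, 72544391 to 72562983, plus strand), an actin filament capping protein, ranged from 324 to 493 CPM (median 395) in KO mice and from 169 to 245 CPM (median 199) in WT mice. It rose by 0.92 ± 0.09 (adjusted p = 3.05e-07), and 39.3% ± 3.39 against 21.4% ± 3.13 of thinned cells had a UMI. Lgals9 (chromosome 11, 78962974 to 78984946, minus strand), which encodes galectin 9, ranged from 130.3 to 163 CPM (median 150.4) in KO mice and from 69.2 to 85.7 CPM (median 78.8) in WT mice (0.89 ± 0.08, adjusted p = 3.07e-08). Nr3c1, the glucocorticoid receptor gene on chromosome 18, ranged from 196 to 447 CPM (median 288) in KO mice and from 118 to 158 CPM (median 135) in WT mice. Its KO mice were spread widely above a narrow WT group, with 0.99 ± 0.13 (adjusted p = 1.46e-05).

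The other large rises were in genes of lower level. Klrk1 (chromosome 6, 129610323 to 129623864, minus strand), which encodes the activating receptor NKG2D, ranged from 25.4 to 70.9 CPM (median 53.8) in KO mice and from 10.2 to 25.0 CPM (median 14.7) in WT mice (1.52 ± 0.24, adjusted p = 1.38e-04). Vav3, a guanine nucleotide exchange factor, was at 35.7 ± 11.8 against 13.1 ± 4.98 CPM (1.20 ± 0.23, adjusted p = 0.00108). Crip2, a LIM domain protein, was at 28.7 ± 9.91 against 11.1 ± 1.47 CPM (1.20 ± 0.19), with KO mouse 2 at 47.9 CPM and the other KO mice at 21.6 to 31.0 CPM. Sesn1, a stress-induced inhibitor of mTORC1, rose by 1.00 ± 0.19 and Grb7, an adaptor protein, by 0.86 ± 0.20, with adjusted p of 0.00125 and 0.00603. The rule required that neither overlapped between the genotypes.

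Among the 10 largest falls, Cd7 (chromosome 11, 121036747 to 121039418, minus strand), a costimulatory surface protein, ranged from 80.1 to 104 CPM (median 99.5) in KO mice and from 185 to 291 CPM (median 214) in WT mice. Every KO mouse was below every WT mouse, as the rule required of each of these falls. The log2 fold change was -1.28 ± 0.10 (adjusted p = 4.53e-09), and 11.1% ± 2.05 against 20.6% ± 4.02 of thinned cells had a UMI. Trat1 (chromosome 16, 48730774 to 48772021, minus strand), an adaptor that stabilises the T cell receptor complex, ranged from 104 to 157 CPM (median 125) in KO mice and from 231 to 291 CPM (median 262) in WT mice. It fell without overlap (-1.10 ± 0.08, adjusted p = 3.55e-09), with 15.8% ± 2.13 against 30.4% ± 2.02 of thinned cells holding a UMI. Trib2, a pseudokinase, was at 49.5 ± 10.8 against 110.4 ± 15.4 CPM (-1.13 ± 0.12, adjusted p = 5.53e-07). Nt5e, the ectonucleotidase CD73 that makes adenosine, was at 22.9 ± 6.45 against 45.9 ± 5.91 CPM (-1.18 ± 0.15, adjusted p = 9.03e-06). Il1r2, the decoy receptor for interleukin 1, was at 40.6 ± 10.5 against 88.9 ± 17.6 CPM (-1.10 ± 0.15, adjusted p = 1.46e-05).

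The largest falls of all were in genes with few UMIs in KO mice. Smoc2 (chromosome 17, 14279506 to 14404790, plus strand), a matricellular protein, had 24 UMIs in KO and 324 in WT mice. It ranged from 0.856 to 7.74 CPM (median 2.31) in KO mice and from 13.96 to 67.9 CPM (median 38.2) in WT mice. Its log2 fold change was -3.47 ± 0.40 (adjusted p = 2.25e-06). Esm1 (chromosome 13, 113209659 to 113218098, plus strand), a secreted proteoglycan, ranged from 13.3 to 25.7 CPM (median 17.2) in KO mice and from 63.4 to 194 CPM (median 111) in WT mice (-2.63 ± 0.26, adjusted p = 1.50e-07). Its span overlaps that of Gzmk, on the other strand (chromosome 13, 113171608 to 113225908, minus strand), and Gzmk was lower too, -1.25 ± 0.24 (adjusted p = 9.12e-04). No source used here says whether reads were counted by strand, so these falls cannot be told apart. Pde5a, a phosphodiesterase, was at 7.96 ± 5.92 against 28.9 ± 14.9 CPM (-1.91 ± 0.36, adjusted p = 8.45e-04).

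**Figure D3:**
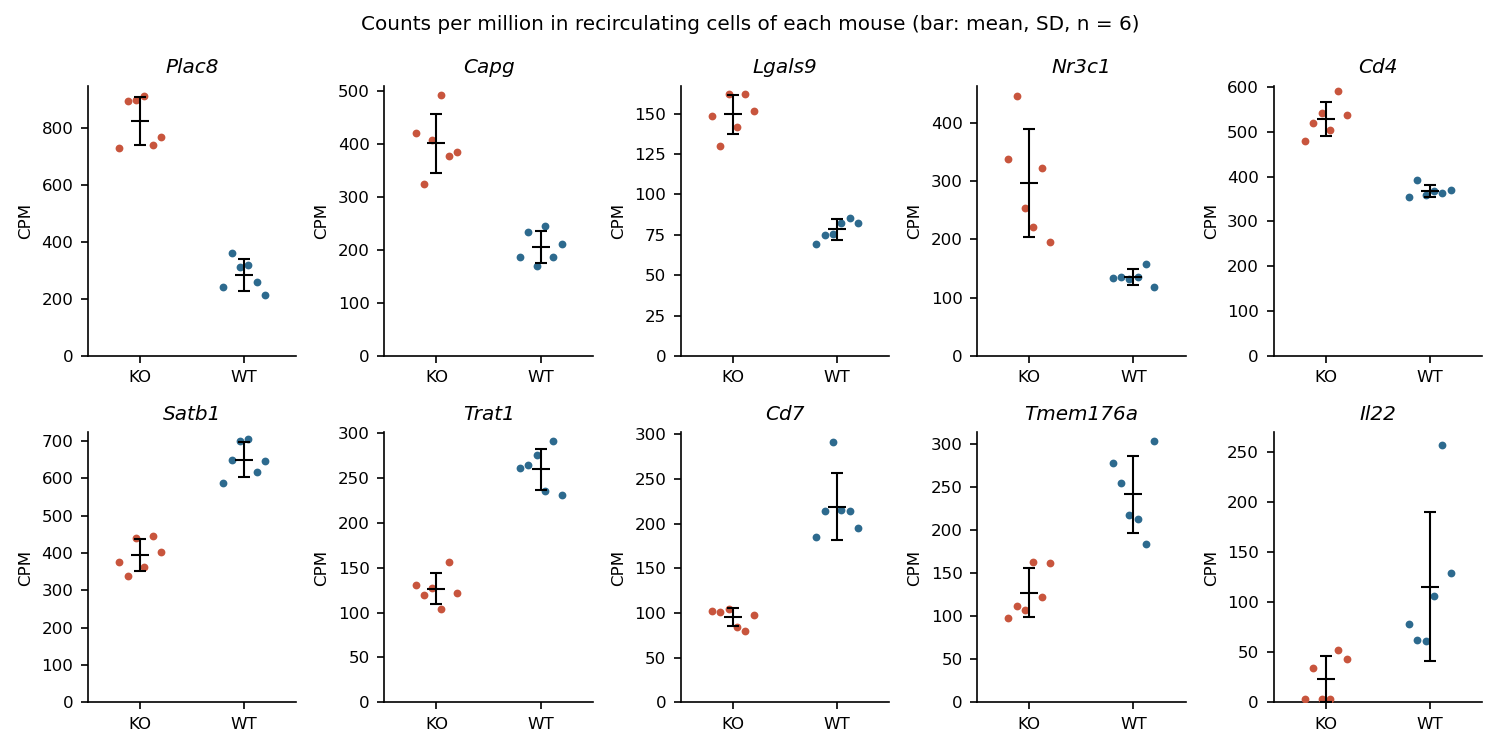
CPM (linear axes) of 10 genes in the recirculating cells of each mouse. Points are mice, and bars show the mean and SD of 6 KO or 6 WT mice. In each panel the KO and WT points do not overlap, which the rule that named most of these genes required. Plac8, Capg, Lgals9, Nr3c1 and Cd4 were higher in KO mice, and Satb1, Trat1, Cd7, Tmem176a and Il22 lower.

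Several Th17 genes fell within recirculating cells. Of 11 tested, 5 were called lower, beside 3.3% of all genes, and the list's median was -0.65. Il22 (chromosome 10, 118204942 to 118210047, plus strand), a cytokine that acts on epithelium, ranged from 3.096 to 52.5 CPM (median 19.2) in KO mice and from 61.6 to 257 CPM (median 92.3) in WT mice. Of the KO mice, 1, 3 and 4 stood at 3.92, 3.096 and 3.32 CPM, and WT mouse 5 was highest. Il22 was one of the 10 largest falls, so its lack of overlap was required by the rule. The log2 fold change was -2.19 ± 0.40 (adjusted p = 7.71e-04), and with 112 cells per mouse -1.80 (adjusted p = 0.0671), not called. Few cells carried it: 1.56% ± 1.12 against 2.95% ± 1.04 of thinned recirculating cells had a UMI, beside 1.20% ± 0.420 against 0.862% ± 0.730 in unnamed 1 and 21.6% ± 8.47 against 25.8% ± 5.51 in Th17 cells. The median depth of those clusters was 3190, 2686 and 3396 UMIs per cell.

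Batf, a factor that opens Th17 genes, was at 268 ± 37.9 against 409.5 ± 62.4 CPM (-0.65 ± 0.09, adjusted p = 3.61e-05), and Rora, a nuclear receptor, at 747 ± 68.5 against 861 ± 24.1 CPM (-0.26 ± 0.06, adjusted p = 0.00389), both without overlap. Il17a did not pass, with 0.46 ± 0.41 (adjusted p = 0.670) and 33.8 ± 28.2 against 22.5 ± 13.1 CPM. Il1r1 (-0.70 ± 0.26), Ahr (0.32 ± 0.14), Stat3 (-0.01 ± 0.07) and Cxcl3 (-1.07 ± 0.49) did not pass. Il17f, Il23r and Ccr6 were too low to be tested.

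The last members of the list that fell are a pair of neighbours, Tmem176a and Tmem176b, membrane proteins expressed in Th17 cells. Tmem176a (chromosome 6, 48840919 to 48847071, plus strand) ranged from 97.9 to 163 CPM (median 117) in KO mice and from 183 to 303 CPM (median 236) in WT mice (-0.92 ± 0.12, adjusted p = 1.69e-05). Tmem176b (chromosome 6, 48833818 to 48841496, minus strand) ranged from 131 to 250.0 CPM (median 186) in KO mice and from 286 to 442 CPM (median 298) in WT mice (-0.76 ± 0.12, adjusted p = 1.21e-04). Both fell without overlap. The annotated genes lie head to head on opposite strands and share 578 bases, so without strand their reads there cannot be told apart. A window that covers part of the region they share, and runs past its end, is shown because both genes moved. It is the promoter of Tmem176a from RefSeq (GRCm38.p6), chr6:48841233-48841532, plus strand. The 5′ end of Tmem176b, at 48841496, lies inside it, and the whole window lies inside the GENCODE span of Tmem176a given above:

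Tmem176a promoter: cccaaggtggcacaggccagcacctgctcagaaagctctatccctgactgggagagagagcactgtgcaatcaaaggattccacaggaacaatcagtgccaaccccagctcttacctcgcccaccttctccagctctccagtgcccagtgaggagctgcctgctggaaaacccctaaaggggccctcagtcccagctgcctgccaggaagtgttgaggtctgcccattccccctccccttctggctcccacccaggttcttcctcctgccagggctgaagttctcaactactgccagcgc

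The window has a GC content of 59.7%. AGGTCA, the core bound by RORA and other nuclear receptors, searched on both strands, has 0 matches in it, while 16.3% of 32851 promoters of that length hold one. The letters carry no capitals, since no motif was found.

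Most type 1 and killer cell genes were not called. Over all genes, 2.17% were called higher and 3.3% lower. Of 14 tested Th1 genes, 2 rose, both subunits of the interleukin 12 receptor. Il12rb1 was at 63.1 ± 11.5 against 38.7 ± 8.31 CPM (0.56 ± 0.14, adjusted p = 0.0180) and Il12rb2 at 251 ± 33.9 against 180.2 ± 29.0 CPM (0.40 ± 0.10, adjusted p = 0.0137). Without KO mouse 4 they had 0.50 (adjusted p = 0.0530) and 0.33 (adjusted p = 0.0516). Il12rb1 was also not called with thinned cells, 0.36 (adjusted p = 0.358), with 112 cells per mouse, 0.59 (adjusted p = 0.121), or without KO mice 1 and 2, 0.49 (adjusted p = 0.0692). The same fits gave Il12rb2 0.29 (adjusted p = 0.195), 0.43 (adjusted p = 0.0587) and 0.37 (adjusted p = 0.0598). Among Th1 genes, 1 was lower without KO mouse 4, KO mouse 6 or WT mouse 3. Ifng (-0.02 ± 0.17), Tbx21 (0.39 ± 0.14) and Cxcr3 (-0.10 ± 0.11) did not pass. Of 10 tested cytotoxic genes, Klrk1 and Ctsw rose and Gzmk fell. Ctsw, a protease of killer cells, was at 628 ± 30.3 against 509.8 ± 44.6 CPM (0.24 ± 0.06, adjusted p = 0.0176), and at 0.20 (adjusted p = 0.0551) without KO mouse 4. With 112 cells per mouse neither Ctsw, 0.17 (adjusted p = 0.398), nor Gzmk, -0.97 (adjusted p = 0.0930), was called, and without WT mouse 6 there were 2 lower. Gzmb (0.51 ± 0.18, adjusted p = 0.125), Gzma (-0.74 ± 0.38) and Ccl5 (-0.01 ± 0.19) did not pass, with wide spreads among mice such as 137 ± 94.9 against 239 ± 156 CPM for Gzma.

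Of 8 tested follicular helper genes, Bcl6 rose and Icos and Slamf6 fell. Icos, a costimulatory receptor, was at 1006 ± 110.4 against 1148 ± 28.2 CPM (-0.25 ± 0.06, adjusted p = 0.00629), and not called with thinned cells, -0.20 (adjusted p = 0.0579). Cxcr5 had 1 UMI in KO and 4 in WT mice, and Il21 had 34 and 27. Of 6 tested regulatory T cell genes, 1 rose and 1 fell. Tnfrsf9, the receptor 4-1BB, rose (108 ± 20.2 against 63.2 ± 11.8 CPM, 0.63 ± 0.12, adjusted p = 0.00112), and Tnfrsf4, the receptor OX40, fell (792 ± 71.9 against 1056 ± 115 CPM, -0.47 ± 0.07, adjusted p = 6.35e-05). Without KO mouse 4, 2 of the 6 were lower. Foxp3 had 13 and 6 UMIs. Of 7 tested inhibitory receptors, Entpd1, the ectonucleotidase CD39, rose (25.1 ± 8.37 against 13.4 ± 3.81 CPM, 0.93 ± 0.21, adjusted p = 0.00615), while Tigit (188 ± 23.5 against 305 ± 36.0 CPM, -0.73 ± 0.08, adjusted p = 2.39e-06) and Cd160 (34.6 ± 7.07 against 55.5 ± 10.8 CPM, -0.76 ± 0.15, adjusted p = 0.00125) fell. Cd160 was not called with thinned cells, -0.56 (adjusted p = 0.160), or with 112 cells per mouse, -0.59 (adjusted p = 0.206). CD39 and CD73 act in sequence on extracellular ATP, and their genes moved in opposite directions.

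Of 14 tested genes that BCL6 is known to repress in follicular helper T cells, 1 rose and 1 fell, with a median of -0.04. Itgb2, a leukocyte integrin chain, ranged from 245 to 391 CPM (median 331) in KO mice and from 180.0 to 229 CPM (median 212) in WT mice (0.52 ± 0.09, adjusted p = 3.33e-04). Rora, given above, fell. Prdm1, the antagonist of BCL6, had -0.20 ± 0.12 (adjusted p = 0.447), Id2 0.16 ± 0.06 (adjusted p = 0.197), Runx3 -0.07 ± 0.11 and Gata3 0.03 ± 0.13. At an unadjusted p under 0.05, 4 were higher and 4 lower. With 1 mouse left out, 2 were called higher without KO mouse 1, KO mouse 4 or WT mouse 2, and 2 lower without KO mouse 3, 4, 5 or 6 or WT mouse 3.

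Interferon targets had a median of 0.31 over 9 tested genes, of which Ifi27l2a (529.6 ± 117 against 302 ± 58.5 CPM, 0.71 ± 0.11, adjusted p = 1.77e-04) and Irf7, a master regulator of interferon genes (129.8 ± 35.6 against 79.0 ± 14.8 CPM, 0.60 ± 0.14, adjusted p = 0.00743), rose. Irf7 was not called with thinned cells, 0.48 (adjusted p = 0.165), or with 112 cells per mouse, 0.44 (adjusted p = 0.185). Bst2 (0.38 ± 0.12) and Isg15 (0.31 ± 0.14) did not pass, with adjusted p of 0.0598 and 0.285. Of 16 immediate early genes, Jun (174 ± 53.2 against 297 ± 68.5 CPM, -0.72 ± 0.14, adjusted p = 0.00160) and Jund (886 ± 45.3 against 1060.1 ± 100.1 CPM, -0.32 ± 0.06, adjusted p = 7.49e-04), both AP-1 subunits, fell and Nr4a3, a gene induced by receptor signals, rose (140.0 ± 17.1 against 97.0 ± 6.88 CPM, 0.43 ± 0.09, adjusted p = 0.00239). Nr4a3 was not called with thinned cells, 0.26 (adjusted p = 0.269), or with 112 cells per mouse, 0.31 (adjusted p = 0.204). Fos (-0.11 ± 0.12) and Nr4a1 (-0.01 ± 0.09) did not pass. Of 11 heat shock genes, Hspa8 fell (-0.23 ± 0.05, adjusted p = 0.00589). Of 15 glycolysis genes, Hk2 rose (0.78 ± 0.22, adjusted p = 0.0305) and Tpi1 fell (-0.38 ± 0.11, adjusted p = 0.0316). Hk2 lost its call without any of 6 mice, KO 1 and 3 and WT 1, 2, 3 and 5 (adjusted p = 0.0512 to 0.0905), and Tpi1 without any of 8, KO 2 to 5 and WT 1, 2, 4 and 5 (0.0593 to 0.0987). Without KO mice 1 and 2 Hk2 had 0.62 (adjusted p = 0.0782) and Tpi1 -0.33 (adjusted p = 0.0888), and Tpi1 was also not called with 112 cells per mouse, thinned cells or total UMI scaling (adjusted p = 0.383, 0.305 and 0.0750). Hk2 did not pass the low-count filter with 112 cells per mouse or thinned cells. Without WT mouse 3, 2 glycolysis genes were lower.

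Ribosomal protein genes fell together in recirculating cells, 68 of 77 tested, and their median log2 fold change was -0.24, with values from -0.39 to 0.01. Their summed share of UMIs was 20.5% to 22.5% in KO and 23.5% to 25.1% in WT mice, without overlap. Rpl21 had -0.39 ± 0.04, Rplp0 -0.35 ± 0.04 and Rps26 -0.30 ± 0.04. Scaled to total UMIs 56 were called lower, with a median of -0.18. Depth per cell also differed between the genotypes, as given above. With each cell thinned to 1500 UMIs, 61 of 77 were called lower, with a median of -0.23. These genes have many near-identical pseudogenes, which makes single values uncertain.

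T cell identity genes were high in all mice, with 7 markers summing to 3872 to 4536 CPM in KO and 3583 to 4048 CPM in WT mice. Cd4 itself (chromosome 6, 124864692 to 124888221, minus strand) rose. It ranged from 479.6 to 590.2 CPM (median 528) in KO mice and from 354 to 391 CPM (median 366) in WT mice, without overlap (0.47 ± 0.06, adjusted p = 4.94e-06). Trbc2, a constant segment of the beta chain with a near-identical copy in Trbc1, fell (log2 fold change -0.30 ± 0.07, adjusted p = 0.00791; with 112 cells per mouse -0.22, adjusted p = 0.143), and Trbc1 had -0.32 ± 0.14 (adjusted p = 0.218).

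To ask whether these differences were particular to recirculating cells, the KO effect was compared with that in other clusters within each mouse. Few genes differed: 6 of 7970 tested against unnamed 1 (0.0753%), 15 of 7814 against unnamed 3 (0.192%) and 9 of 8120 against cytotoxic cells (0.111%). Recovery of such differences was simulated only against unnamed 1, so low counts against the other clusters cannot show that effects were shared. The clusters were drawn from genes that also differ between the genotypes, so their borders may differ between mice, which was not tested.

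Against unnamed 1, Ccl5, a chemokine, differed by 1.13 ± 0.18 (SE, adjusted p = 0.00246): it was at 1737 ± 635 against 1661 ± 601 CPM in recirculating cells, KO against WT, and at 1272 ± 195 against 2753 ± 816 CPM in unnamed 1. Dusp2, a phosphatase that limits ERK signals, differed by 1.07 ± 0.14 (SE, adjusted p = 3.58e-04), falling in unnamed 1 (KO effect -1.27) with -0.20 in recirculating cells. Nkg7, a granule protein, differed by 0.48 ± 0.08 (SE, adjusted p = 0.00369). Plac8 was higher in KO mice in both clusters and more so in recirculating cells (1.48 against 0.71), a difference of 0.77 ± 0.14 (SE, adjusted p = 0.00760) that was lost without KO mouse 1, 0.72 (adjusted p = 0.0566). Il22, outside the rule for named genes and picked after its value was seen, had -2.81 in recirculating cells and 1.59 in unnamed 1, where it was at 29.8 ± 20.5 against 17.1 ± 31.5 CPM.

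Against unnamed 3, Klf3 differed by -1.25 ± 0.17 (SE, adjusted p = 4.02e-04). This KLF family transcription factor was at 167 ± 19.8 against 152 ± 22.8 CPM in recirculating cells and at 218 ± 37.7 against 86.7 ± 38.7 CPM in unnamed 3. Tnfrsf9 went in opposite directions, 0.69 in recirculating and -0.59 in unnamed 3 cells, a difference of 1.28 ± 0.19 (SE, adjusted p = 7.02e-04). Gadd45b, a stress-induced gene, had 0.19 and -0.64, a difference of 0.84 ± 0.13 (SE, adjusted p = 8.39e-04). Ifi27l2a had 0.73 and -0.22, a difference of 0.95 ± 0.16 (SE, adjusted p = 0.00289). S100a6, a calcium-binding protein, differed by 0.57 ± 0.11 (SE, adjusted p = 0.0199). Its call was lost without KO mouse 3, 4 or 6 or WT mouse 2, 3 or 6 (adjusted p = 0.0506 to 0.0691).

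Against cytotoxic cells, Ifitm3, an interferon-induced membrane protein, differed most firmly. It was at 379 ± 186 against 310.4 ± 77.3 CPM in recirculating cells and at 249 ± 116 against 73.3 ± 35.3 CPM in cytotoxic cells, a difference of -1.56 ± 0.20 (SE, adjusted p = 0.00257). Nkg7 had 0.30 and -0.33, a difference of 0.62 ± 0.10 (SE, adjusted p = 0.0151), and 0.60 (adjusted p = 0.0687) without WT mouse 1. Serpinb9, an inhibitor of granzyme B, differed by 0.99 ± 0.17 (SE, adjusted p = 0.0340), Dennd4a by 0.51 ± 0.09 (SE, adjusted p = 0.0340) and Nr3c1 by 0.69 ± 0.12 (SE, adjusted p = 0.0340). Each of these 3 lost its call when single mice were left out, 6 mice for Serpinb9 (KO 5 and WT 1, 2, 3, 5 and 6), 7 for Dennd4a (KO 4 and 6 and WT 1, 2, 3, 4 and 6) and 8 for Nr3c1 (KO 3 and 5 and every WT mouse). The adjusted p then ran from 0.0517 to 0.130. With 1 mouse left out, the count of genes against cytotoxic cells was 1 without WT mouse 1, 2 without WT mouse 3, 3 without WT mouse 2, 4 or 6 and 5 without KO mouse 5 or WT mouse 5. The count against unnamed 3 was 7 without KO mouse 6 and 9 without KO mouse 3, KO mouse 5 or WT mouse 6, and that against unnamed 1 was 12 without WT mouse 6.

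**Figure D4:**
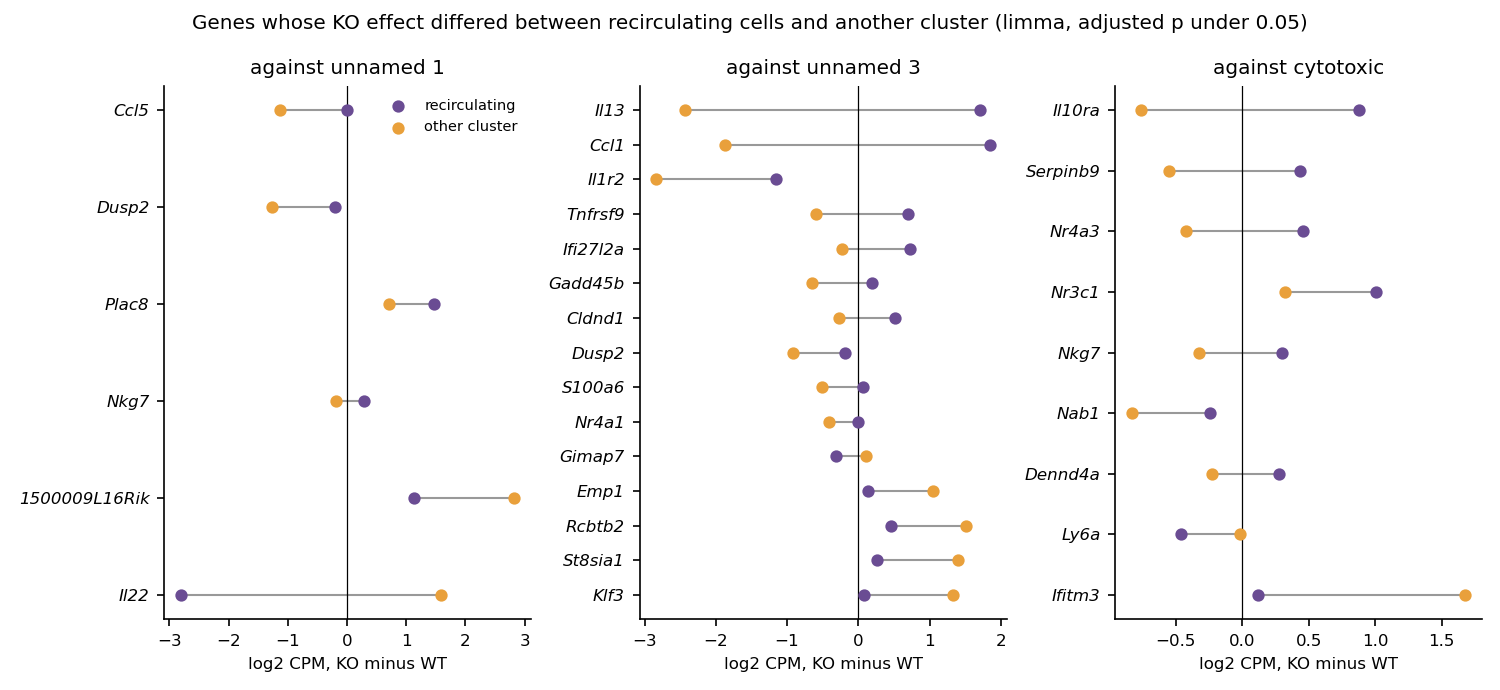
KO effect (difference of mean log2 CPM, KO minus WT mice) of each gene that differed between recirculating cells and unnamed 1, unnamed 3 or cytotoxic cells. Purple points are recirculating cells, orange points the other cluster, and the 3 panels have separate linear scales. Il22 (-2.81 and 1.59 against unnamed 1) and Tnfrsf9 (0.69 and -0.59 against unnamed 3) lie on opposite sides of 0.

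T cell receptor clonotypes, which mark cells descended from 1 parent cell, are a readout that the rule for the subset did not use. Receptor segment genes were in the count table, and their part in the clustering was not tested. A clonotype was recorded for 3771 of the 4292 recirculating cells (87.9%), which held 2305 clonotypes. Of 6367 clonotypes in all cells, 6347 were found in a single mouse, so clones were counted within mice. Clones in recirculating cells were more varied than those in cytotoxic, Th17 and cycling cells. A draw of 20 cells held 18.5 ± 0.726 clonotypes in recirculating cells (SD, n = 12 mice). It held 16.95 ± 1.83 in cytotoxic cells (fewer in 10 of 12 mice), 16.4 ± 2.31 in Th17 cells (fewer in 10 of 12) and 17.1 ± 1.42 in cycling cells (fewer in 11 of 12). By exact sign-flip permutation tests, two-sided and adjusted over 6 clusters, p was 0.00879, 0.00879 and 0.00586. Regulatory cells had enough cells in 6 mice, at 15.4 ± 2.91 (fewer in 6 of 6, adjusted p = 0.0469 by the exact test, whose raw p of 0.0312 is the smallest 6 mice allow). By the share of cells in clones of 1 cell the direction against regulatory cells turned, 29.6% against 43.3%, recirculating cells being higher in 1 of 6 mice (adjusted p = 0.234, exact). The differences from unnamed 1 (0.201 ± 0.626) and unnamed 3 (0.476 ± 1.39) did not pass (adjusted p = 0.314 for both, exact).

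**Figure D5:**
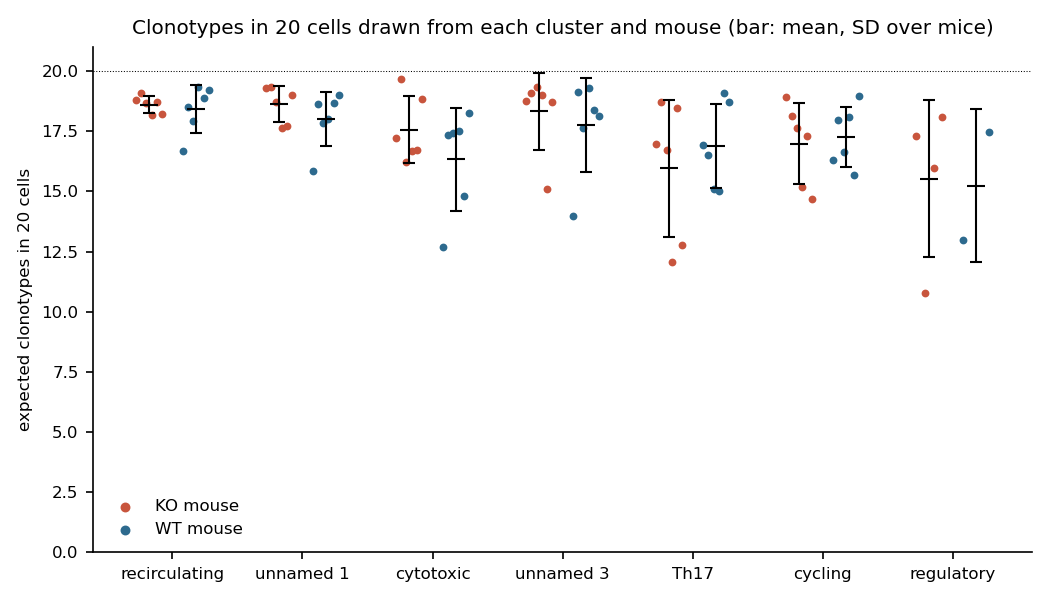
Expected number of clonotypes in 20 cells drawn from each cluster of each mouse (axis from 0, dotted line at the maximum of 20). Points are mice and bars the mean and SD over KO or WT mice; regulatory cells have 4 KO and 2 WT mice. Recirculating cells averaged 18.5, above Th17 cells at 16.4 and cytotoxic cells at 16.95.

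Clones of recirculating cells also lay in other clusters. Of the 3771 cells, 37.2% had a clone mate in unnamed 1, 33.0% in Th17 and 30.4% in cytotoxic cells. The share was 30.4% for cycling, 29.3% for unnamed 3 and 1.19% for regulatory cells. These shares were not scaled to cluster size and did not rank by it. Cytotoxic cells numbered 3855 and cycling cells 1188, at the same share. Clones were ranked by their recirculating cells, among those whose most frequent beta-chain entry was 1 plain sequence. The beta-chain junctions of the first 2 clones per genotype are shown as deposited, with the first and last codon in capitals:

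KO mouse 6: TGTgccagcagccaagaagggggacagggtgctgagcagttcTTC
KO mouse 3: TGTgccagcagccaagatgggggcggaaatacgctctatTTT
WT mouse 1: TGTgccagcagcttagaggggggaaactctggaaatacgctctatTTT
WT mouse 3: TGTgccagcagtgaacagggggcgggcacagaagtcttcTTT

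The clone of KO mouse 6 had 140 cells, 56 of them recirculating and 43 in Th17 cells. That of KO mouse 3 had 42 cells, 24 of them recirculating and 10 in unnamed 3. In WT mouse 1 the clone had 235 cells, 56 recirculating and 89 cytotoxic, and in WT mouse 3 it had 72, 38 of them recirculating. Each was made of 1 beta chain and found in no other mouse. They were picked for their size, which is a description.

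No clonotype measure passed between the genotypes. The share of recirculating cells with a clonotype was 85.5% ± 3.64 in KO and 89.4% ± 2.61 in WT mice (SD, n = 6 each; p = 0.0455 by the exact permutation test, 0.182 when adjusted over 4 measures). Of cells with one, 70.5% ± 2.89 against 70.7% ± 4.88 were in clones of 2 or more cells of the mouse (exact p = 0.898). A draw of 50 cells held 43.2 ± 1.49 against 42.6 ± 3.43 clonotypes (exact p = 0.755). Clones that spanned several clusters held 64.0% ± 4.15 against 61.7% ± 4.79 (exact p = 0.377).

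Shares of recirculating cells with a marker UMI, each cell thinned to 1500 UMIs (39 KO and 27 WT cells were shallower and left out), did not pass between the genotypes either. Klf2 was found in 33.1% ± 4.38 against 38.7% ± 3.74 of cells (SD, n = 6 each; p = 0.0390 by the exact permutation test, 0.234 when adjusted over 6 genes), S1pr1 in 16.3% ± 2.25 against 17.1% ± 2.38, Ccr7 in 7.15% ± 1.86 against 6.34% ± 1.35 and Il7r in 67.8% ± 4.85 against 71.0% ± 2.94. Cd69, the antagonist of S1PR1, was found in 56.2% ± 3.23 against 55.2% ± 3.35 of the thinned cells. Unthinned, the shares for Klf2 were 46.9% and 52.7%, for S1pr1 27.1% and 29.9% and for Cd69 75.6% and 75.7%. S1pr1 was found in 1.64% and 1.66% of thinned cells of unnamed 1, where its level was lowest, at a median depth of 2686 UMIs against 3190 in recirculating cells. Thinned to 500 UMIs, S1pr1 had a lower share in KO mice by 1.98 percentage points (adjusted p = 0.0260, exact).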

How the data were processed

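Single-cell RNA was measured in 18860 colonic CD4 T cells of 12 mice in 1 pooled library of 5′ chemistry, and hashtags served only to give each cell its mouse. The submitters' processing notes name GRCm38 (mm10), Seurat 3.1.5 and Cell Ranger 3.1.0. The authors deposited raw UMI counts per cell for 11971 genes (57634998 UMIs) and a per-cell annotation that holds mouse, genotype, doublet score, cluster, mitochondrial percent and clonotype. The filter on cells and the strand setting of counting are not given in the sources used here, and no doublet caller was run. Every cell's UMI sum matched the annotation, all barcodes were unique, and genotypes matched the hashtag table.

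UMIs were summed per mouse over recirculating cells (cluster 0 of the annotation) and put through edgeR's quasi-likelihood test (version 4.0.16, R 4.3.3; filterByExpr and TMM, no covariates), with genes called at a Benjamini-Hochberg adjusted p under 0.05 over all genes tested. The SE of a log2 fold change is its size over the square root of F. CPM (counts-per-million) are of all UMIs, without TMM factors. Effects were compared between clusters with limma 3.58.1 (trend) on within-mouse differences of log2 CPM, prior count 2, in mice with at least 20 cells of both clusters. Depth, clonotype and detection measures had exact permutation tests over 924 assignments of 12 mice (smallest p 0.00216). Levels against other clusters had no test. On simulated data, changes were placed only in genes above a floor of counts. Of these the gene fit recovered 78% of 1.5-fold and 99% of 2-fold changes, with 9 false calls among 7497 genes. The difference fit, simulated only for recirculating cells against unnamed 1, recovered 81% of 2-fold changes, with 8 false calls among 5908 genes. Recovery against the other clusters compared was not simulated and is unknown. The 2 clusters in the simulated difference fit were drawn independently, unlike clusters of the same mouse.

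The cells and the lists (16 gene lists and 9 marker lists) were chosen with earlier results of these data known. Named were Bcl6, the 4 markers, the 10 largest rises and falls (adjusted p under 0.05, mean log2 CPM of at least 4, no overlap), up to 4 called members per list and direction, 15 high and 10 low genes of the subset, and up to 5 genes per difference. Receptor segments, immunoglobulins and unnamed gene models were passed over, and other list members are given by value. Some genes covered by these rules are not reported here. Coordinates are from GENCODE M21 and promoters from RefSeq, both GRCm38.

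Alternatives were DESeq2 1.42.0, its size factors, no low-count filter, 112 cells per mouse, 1500 UMIs per cell, no receptor genes, no high doublet scores, cells with a clonotype, no KO mice 1 and 2, and each mouse left out, and, for the other measures, other priors, filters, draws and thinning. Scaling to total UMIs was added after seeing the data.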

Additional observations from a re-analysis of the deposited data

Results flagged for a closer look

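The KO effect in recirculating cells differed from that in another cluster at 14 pairings of a named gene and a cluster, by limma on within-mouse differences with 6 mice each (log2 scale). Against unnamed 1 these were Dusp2 (1.07), Ccl5 (1.13), Nkg7 (0.48) and Plac8 (0.77). Against unnamed 3 they were Klf3 (-1.25), Tnfrsf9 (1.28), Gadd45b (0.84), Ifi27l2a (0.95) and S100a6 (0.57). Against cytotoxic cells they were Ifitm3 (-1.56), Nkg7 (0.62), Serpinb9 (0.99), Dennd4a (0.51) and Nr3c1 (0.69). Nkg7 differed against both unnamed 1 and cytotoxic cells.

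In 5 of 82 sets of 6 mice, 1 mouse stood far from the others by Dixon's 95% criterion, which chance meets in about 1 of 20 sets. Arhgap18 was at 44.2 CPM in KO mouse 5, with the other KO mice at 30.7 to 35.5 CPM. Crip2 was at 47.9 CPM in KO mouse 2, with the others at 21.6 to 31.0 CPM. Cd7 was at 291 CPM in WT mouse 3, with the others at 185 to 215 CPM, and Il22 at 257 CPM in WT mouse 5, with the others at 61.6 to 129 CPM. The share of recirculating cells with a clonotype was 78.6% in KO mouse 2, which had the fewest recirculating cells, and 85.3% to 88.8% in the other KO mice.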

How the results depend on the processing

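The labels pair no KO with a WT mouse. No paired analysis was possible because the hashtags number the mice without linking the genotypes. The count of genes called between KO and WT mice was 413 with DESeq2 size factors, 370 by DESeq2, 482 without a low-count filter, 437 without receptor genes and 376 in cells with a clonotype. With 112 cells per mouse it was 183 (49 higher and 134 lower of 4531 genes tested), and with 1500 UMIs per cell 271 (101 higher). Scaled to total UMIs 302 were higher. None of the 416 genes that a fit still tested changed sign in it, and 350 to 471 were called with 1 mouse left out. List medians that changed sign with the scaling lay within 0.1 of 0. Against unnamed 3 the count of differing genes was 5 with a prior of 0.5, 27 in genes of mean log2 CPM 4 or more, and 7 to 19 with a mouse left out. Against cytotoxic cells it was 2 with a prior of 0.5 and 1 to 9 with a mouse left out, and against unnamed 1 it was 5 to 12.

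With a mouse left out, the KO minus WT difference ran from -0.0628 to -0.0442 percentage points for the mitochondrial share, -1.69 to 0.932 for expanded clones, -0.599 to 1.22 clonotypes in 50 cells, and -1.18 to 0.000141 percentage points for S1pr1 detection; the last 3 passed no test. S1pr1 detection differed by -1.98 at 500 UMIs, and Cd69 detection by -0.0723 without thinning. Counted as cells in clones of 1 cell, the recirculating share differed from that of unnamed 3 by -1.74 and of regulatory cells by -13.7 percentage points, neither past the test. The profile count was 4 with mice pooled and 30 against the mean of the other clusters. The cause of these shifts was not tested, beyond fewer genes, cells or mice where a fit drops them. No value was had for clonotypes against regulatory cells with 1 of their 6 mice left out, since under 6 remained. Depth limits genes under about 10 CPM, including Cxcr5 and Foxp3.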
